A study of Caenorhabditis elegans with 2 samples.

Results

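Binding of the zinc finger transcription factor LSY-2 was measured around the 6 Hox cluster genes of Caenorhabditis elegans, ceh-13, lin-39, mab-5, egl-5, nob-1 and php-3. They were chosen by name from the 19973 protein-coding genes annotated on the nuclear chromosomes. For each gene the window ran from 5 kb upstream of its 5′ end to its 3′ end, and a peak was counted where its summit, the base of highest signal, lay in the window. The windows held 18 of the 6850 peaks in the thresholded list. That list keeps peaks that passed the authors' test of agreement between replicates, the irreproducible discovery rate (IDR). The data were chromatin immunoprecipitation sequencing (ChIP-seq) of an eGFP-LSY-2 fusion in whole starved L1 larvae of strain OP367, genotype unc-119(tm4063) III; wgIs367, of pooled male and female sex. The larvae had been starved after bleaching, and their age was given as unknown. There was 1 group with 2 biological replicates, so the values are described and no conditions are compared. The unc-119 allele and the wgIs367 transgene were carried by both replicates. Library DNA fragments were 150 to 350 bp long, and the read depth is unknown because the lists give no counts.

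Hox genes encode homeodomain transcription factors that give cells their identity along the anterior to posterior axis. In C. elegans they lie as spaced pairs rather than as a single compact cluster. ceh-13 is the labial orthologue and acts in anterior embryonic patterning. lin-39 acts in the mid-body, where it is needed for the vulva and for mid-body neuroblasts. mab-5 acts more posteriorly and directs the migration of Q neuroblast descendants. egl-5, nob-1 and php-3 are the posterior genes related to Abdominal-B, egl-5 acting in tail cells and the adjacent paralogues nob-1 and php-3 in posterior embryonic patterning. LSY-2 is a C2H2 zinc finger protein known for making the left and right ASE taste neurons differ. Whole larvae mix all cell types, so few cells with strong binding and many cells with weak binding cannot be told apart.

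Every Hox gene had a thresholded LSY-2 summit in its window, 6 of 6, where 40.2% of all protein-coding genes had one. In 5 of 6 genes a summit lay within the promoter window, 1000 bp upstream to 200 bp downstream of the 5′ end, against 21.1% of all genes. With 500 bp upstream and 100 bp downstream, only lin-39 and egl-5, 2 of 6, had one, against 16.6% of all genes. lin-39 held 5 summits and ceh-13, mab-5 and nob-1 held 4 each, where 1.52% of all genes held at least 4. php-3 held 2, both of which also counted for nob-1, and egl-5 held 1. The peaks were moderate in strength. On the authors' signal scale, which has no stated unit, the 18 Hox peaks ran from 71.4 to 443.5 with a median of 154.3, and all 6850 peaks ran from 68.8 to 24270.2 with a median of 169.4. Of the 18, 8 lay over the median of the whole list and 2 over its upper quartile of 343.1. A median parts a list evenly by definition, so 8 of 18 is near the share of all peaks.

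The DNA under the summits is shown for the strongest peak of each gene and for the 4 windows that held TGATNNAT, the core letters of a composite Hox and PBC cofactor site. Each window is the summit base with 50 bases on each side, from the RefSeq copy of WBcel235 (ce11), plus strand, 5′ to 3′. For egl-5 only the bases before the gene's 5′ end are printed, and a CANNTG match that begins at the last of them and runs into the gene is left in lower case. Capitals mark a match, on either strand, to any of 5 words searched. These were TGATNNAT, the homeodomain core TAATTA and a word for GATA factors, AGATAA. An E-box word, CANNTG, and a GA repeat word, GAGAGA, completed the set. No 2 different words overlapped in these windows.
ceh-13 summit 787 bases upstream, chrIII:7554823-7554923: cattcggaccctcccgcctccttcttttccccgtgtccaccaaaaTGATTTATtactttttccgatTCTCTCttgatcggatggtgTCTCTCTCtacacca
ceh-13 summit 1822 bases upstream, chrIII:7553788-7553888: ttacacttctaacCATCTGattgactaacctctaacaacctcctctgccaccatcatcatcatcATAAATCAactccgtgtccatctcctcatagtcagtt
ceh-13 summit 2589 bases upstream, chrIII:7553021-7553121: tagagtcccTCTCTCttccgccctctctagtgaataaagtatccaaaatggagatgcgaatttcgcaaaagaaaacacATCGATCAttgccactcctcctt
lin-39 summit 151 bases upstream, chrIII:7536733-7536833: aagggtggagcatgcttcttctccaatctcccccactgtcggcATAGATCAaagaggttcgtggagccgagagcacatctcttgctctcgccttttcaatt
lin-39 intron 1 summit, chrIII:7534838-7534938: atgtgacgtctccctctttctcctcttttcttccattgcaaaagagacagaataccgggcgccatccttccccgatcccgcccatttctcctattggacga
mab-5 intron 3 summit, chrIII:7778647-7778747: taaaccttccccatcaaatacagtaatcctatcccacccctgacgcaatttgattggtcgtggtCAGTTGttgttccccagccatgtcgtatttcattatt
nob-1 summit 794 bases upstream, chrIII:12085060-12085160: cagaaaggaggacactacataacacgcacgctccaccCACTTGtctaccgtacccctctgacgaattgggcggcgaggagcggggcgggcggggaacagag
nob-1 intron 2 summit shared with php-3, chrIII:12080849-12080949: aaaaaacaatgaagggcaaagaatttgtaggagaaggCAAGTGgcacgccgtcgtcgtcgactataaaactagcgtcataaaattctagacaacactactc
egl-5, the bases of the summit window that lie before the gene, chrIII:7814335-7814373: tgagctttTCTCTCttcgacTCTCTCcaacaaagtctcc

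TGATNNAT occurred in 4 of the 18 Hox windows and in 5.8% of the windows at all 6850 summits. Of these 4 windows, 3 belonged to ceh-13, whose 4th summit, 4493 bp upstream, held none of the 5 words. The remaining window was at the lin-39 5′ end. TAATTA occurred in 1 Hox window, the one 877 bp upstream of mab-5, and in 2.15% of all windows. AGATAA occurred in 0 Hox windows and in 5.52% of all windows. CANNTG occurred in 6 Hox windows and in 40.6% of all windows, and GAGAGA in 7 Hox windows and in 28.1% of all windows. The median GC content was 42.6% in the Hox windows, with a range of 35.6% to 62.4%, and 43.6% in all windows. A match describes the letters in these windows and was not tested as a binding site.

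**Figure D1:**
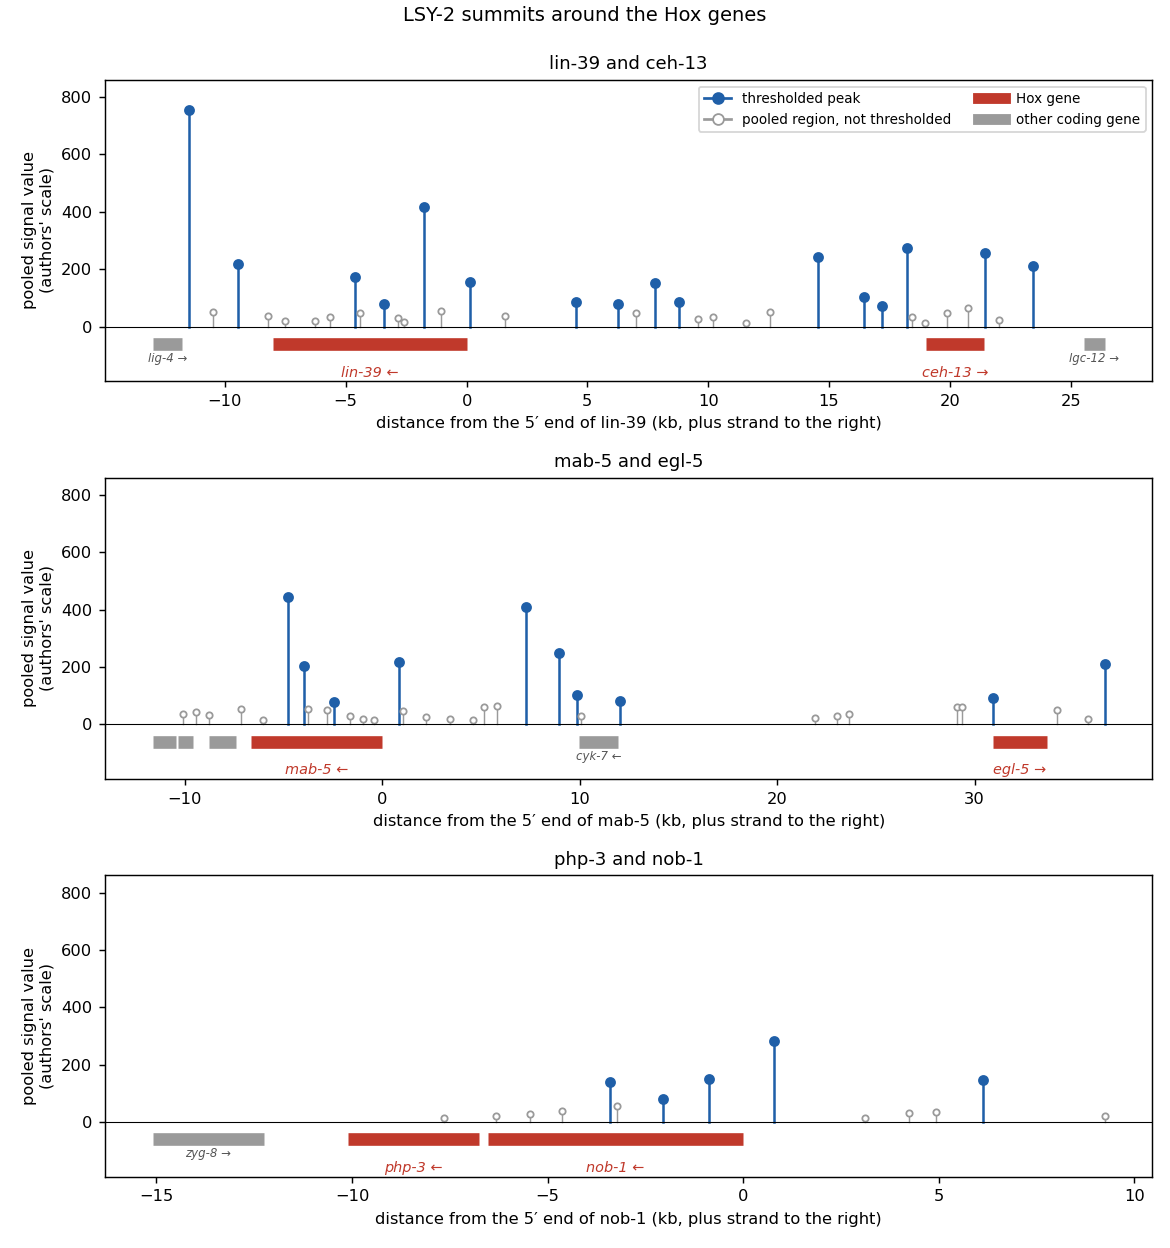
Summits of the pooled list around the Hox genes. The horizontal axis is the distance in kb from the 5′ end of lin-39, mab-5 or nob-1, and the vertical axis is the pooled signal value on the authors' scale. Filled points are thresholded peaks, open points are pooled regions outside the thresholded list, and bars below are protein-coding genes, with Hox genes in red. The space between lin-39 and ceh-13 holds 9 thresholded summits, and the 18884 bp before egl-5 hold none.

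The map of summits shows how the peaks were spread around each pair. ceh-13 (WBGene00000437, plus strand, chrIII:7555660-7558041) had all 4 of its thresholded summits upstream. The nearest, 787 bp upstream at chrIII:7554708-7555007, had the highest signal, 275.0 in the pooled list, with 132.1 in replicate 1 and 141.7 in replicate 2. The farthest, 4493 bp upstream, had 242.5, with 88.2 in replicate 1 and 156.7 in replicate 2, the widest relative gap in favour of replicate 2 among the 18. Between them lay summits of 71.4 at 1822 bp upstream and 104.4 at 2589 bp upstream. The weaker of these, 71.4, had 47.4 in replicate 1 and 24.6 in replicate 2, the widest gap in the other direction. No thresholded summit lay inside ceh-13, whose span is 2382 bp. A pooled region over its coding sequence, 1700 bp downstream of the 5′ end, reached 65.3 and stayed out of the thresholded list. Beyond the window, a thresholded summit of 256.1 stood 62 bp past the 3′ end of ceh-13.

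lin-39 (WBGene00003024, minus strand, chrIII:7528641-7536632) had 2 summits upstream and 3 inside the gene. Its strongest, 418.0, with 188.4 in replicate 1 and 227.8 in replicate 2, lay in intron 1 of the longest transcript at chrIII:7534702-7535057, 1744 bp into the gene. That place was also 83 bp upstream of the 5′ end of a shorter coding transcript, C07H6.7.2. A summit 151 bp upstream of the gene's 5′ end reached 156.4, with 61.5 in replicate 1 and 97 in replicate 2. It lay in a pair of annotated non-coding RNA genes, C07H6.12 and C07H6.16. The remaining introns carried 77.2 in intron 2 and 173.0 in intron 3, and the summit 4529 bp upstream had 84.2. The intron 2 peak had 37.2 in replicate 1 and 36.6 in replicate 2. The intron 3 peak had 74.3 in replicate 1 and 92.3 in replicate 2. The strongest thresholded peak within the mapped neighbourhood of the pair lay outside the window, 3500 bp past the 3′ end of lin-39. It reached 755.4, with 329.0 in replicate 1 and 430.8 in replicate 2, and its nearest coding 5′ end was that of lig-4.

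lin-39 and ceh-13 point away from a shared intergenic space of 19027 bp that held 9 thresholded summits, or 0.473 per kb. Of 170 other intergenic spaces of like length, from 0.8 times as long to the inverse of that factor, 0.588% held at least 9, and their median was 0. The signals in the space ran from 71.4 to 275.0. Of the 9, 3 fell between the window edges of both genes: 78.6 at 6245 bp upstream of lin-39, 150.9 at 7779 bp inside the non-coding gene linc-57, and 84.6 at 8809 bp. The values just inside the 5 kb limit were thus 84.2 for lin-39 and 242.5 for ceh-13. For lin-39 the value just outside it was 78.6. For ceh-13 no further summit was gained with 10 kb upstream, where its count stayed at 4.

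mab-5 (WBGene00003102, minus strand, chrIII:7776835-7783454) had 1 summit upstream and 3 in intron 3, which is 3564 bp long. The strongest of all 18 Hox peaks was in that intron, 4757 bp into the gene at chrIII:7778550-7778848. It reached 443.5 in the pooled list, rank 1227 of 6850, with 210.8 in replicate 1 and 237.8 in replicate 2. A neighbour 3943 bp into the gene reached 202.5, with 98.7 in replicate 1 and 105.5 in replicate 2. By distance alone, the nearest coding 5′ end to both was that of bath-15 downstream, at 2664 and 3478 bp. The third intronic summit had 78.4, with 34 in replicate 1 and 50.5 in replicate 2. The upstream summit, 877 bp from the 5′ end, had 218.5, with 104.9 in replicate 1 and 112.2 in replicate 2. The replicates therefore lay close to each other at every mab-5 peak but the weakest.

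4 further summits upstream of mab-5 lay outside its window, and all had cyk-7 as the gene with the nearest coding 5′ end. The first of these, 7282 bp upstream, reached 409.2, close to the intronic maximum. The space between mab-5 and cyk-7, 9991 bp long, held 4 summits in all, 3 of them outside the mab-5 window. Of 642 intergenic spaces of like length, 3.89% held at least 4. For every other space beside a Hox gene, apart from lin-39 to ceh-13, 8.02% or more of like-length spaces held at least as many summits. The share was 9.09% for nob-1 to cest-12 and 46.2% for cyk-7 to egl-5. egl-5 (WBGene00001174, plus strand, chrIII:7814374-7817141), the partner of mab-5, showed the sparsest pattern. Its single summit sat 11 bp into the 5′ untranslated region with a signal of 92.7, 35.1 in replicate 1 and 60.8 in replicate 2. The 18884 bp before the gene held no thresholded summit. A pair of pooled regions there, 1811 and 1574 bp upstream, reached 60.4 and 61 and had the highest −log10 q value the list gives, 4.19, yet were not in the thresholded list. Past its 3′ end, a thresholded summit of 208.9 lay at 2909 bp.

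nob-1 (WBGene00003779, minus strand, chrIII:12077793-12084316) had 1 summit upstream and 3 in intron 2, which is 4330 bp long. The upstream summit, 794 bp from the 5′ end at chrIII:12084978-12085235, was its strongest at 283.2, with 123.3 in replicate 1 and 154.9 in replicate 2. The intronic summits had 152.3, 79.9 and 140.9 at 881, 2053 and 3417 bp into the gene. The first of them was the narrowest of the 18 peaks, 146 bp, and was higher in replicate 1, with 86.7 against 71.7 in replicate 2. php-3 (WBGene00004024, minus strand, chrIII:12074218-12077556) starts 236 bp past the 3′ end of nob-1, and that space held no summit. Both summits in the php-3 window were the ones of 79.9 and 140.9 inside nob-1, at 4707 and 3343 bp upstream of php-3, and only the summit of 140.9 had php-3 as its nearest coding 5′ end. In the promoter window of php-3 the only pooled region, 439 bp upstream, had 22.5. php-3 was the only Hox gene with no promoter summit.

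Ordered by the highest signal in the window, the genes ran mab-5 with 443.5, lin-39 with 418.0, nob-1 with 283.2, ceh-13 with 275.0, php-3 with 140.9 and egl-5 with 92.7. Across peaks in this signal range, 1 SD of the difference between replicates spanned 1.46-fold. That is the spread of single peaks between replicates, and it serves only as a rough yardstick for ratios of pooled signals at different peaks. mab-5 over lin-39 was 1.06-fold and nob-1 over ceh-13 was 1.03-fold, both within that spread. lin-39 over nob-1, at 1.48-fold, and php-3 over egl-5, at 1.52-fold, were barely beyond it, and ceh-13 over php-3 was 1.95-fold. The highest values in replicate 1 were 210.8, 188.4, 123.3, 132.1, 58.4 and 35.1 in the same gene order. In replicate 2 they were 237.8, 227.8, 154.9, 156.7, 77.1 and 60.8, so ceh-13 stood slightly above nob-1 in both, within the spread between replicates. For ceh-13 the highest value in replicate 2 came from the summit 4493 bp upstream, and the summit 787 bp upstream had 141.7 there, below nob-1.

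**Figure D2:**
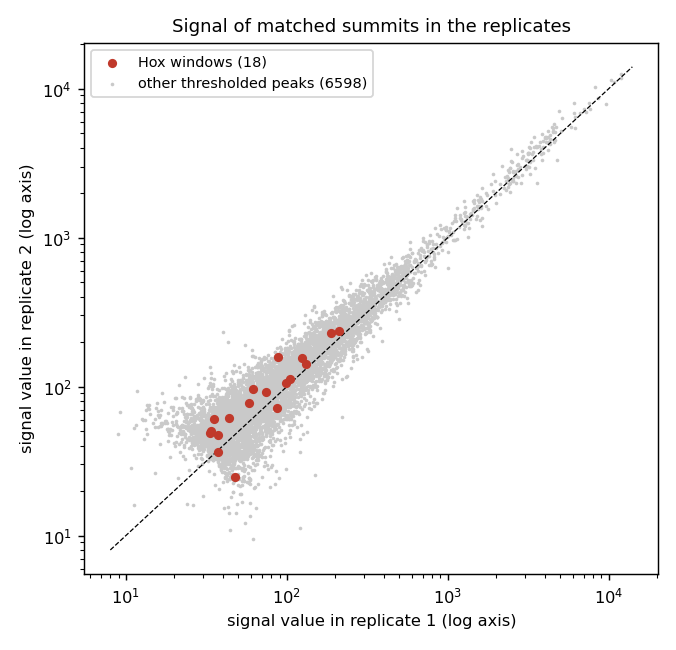
Signal of thresholded peaks in replicate 1 (horizontal, log axis) and replicate 2 (vertical, log axis), both on the authors' scale, for the 18 Hox peaks (red) and for the other peaks with a partner summit in both lists (grey). The dashed line marks equal signal, and 15 of the 18 Hox peaks lie above it, where 68.5% of peaks of like strength do.

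All 18 Hox summits had a partner within 100 bp in both replicate lists, and 6616 of the 6850 thresholded summits did. Each replicate list held 30000 regions, far more than the thresholded list. With only the strongest 6850 regions of each replicate, 14 of the 18 had a partner in both. The partners of Hox summits lay at most 72 bp away. The median log2 ratio of replicate 2 to replicate 1 was 0.32 at the 18 Hox summits, with an SD of 0.42 and a range of −0.95 to 0.83. It was 0.22 with an SD of 0.55 at 5233 peaks in the same signal range, of which 68.5% were higher in replicate 2, as were 15 of the 18 Hox peaks. The SDs show that the Hox peaks differed between replicates about as much as others of their strength. How the authors scaled the replicates is not stated, so a higher value in replicate 2 cannot be told apart from a difference in scale. Both were part of the selection of thresholded peaks, and the presence of partners is a description.

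**Figure D3:**
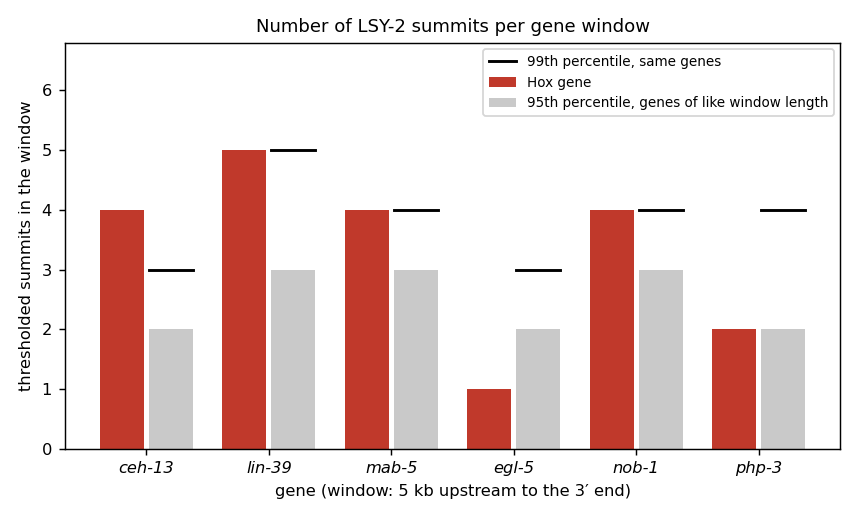
Thresholded summits per window (vertical axis) for each Hox gene (red bars), beside the 95th percentile (grey bars) and 99th percentile (black lines) of genes whose window is of like length. ceh-13 lies above its 99th percentile, lin-39, mab-5 and nob-1 lie at theirs, php-3 lies at its 95th percentile, and egl-5 lies below its 95th percentile. Counts are small whole numbers with many ties. The count of php-3 is reached by 14.3% of such genes, and those of lin-39, mab-5 and nob-1 by 1.36% to 2.7%.

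Longer windows can hold more summits, so each Hox gene was also set beside all genes with a window of like length, between 0.8 times as long and the inverse of that factor. For ceh-13, with a window of 7382 bp, 0.708% of 12714 such genes had at least 4 summits, and 36.7% had at least 1. For lin-39, with the longest window at 12992 bp, 1.36% of 2054 genes had at least 5 and 58.1% had at least 1. For mab-5, 2.7% of 2925 genes had at least 4 and 54.5% at least 1. For nob-1, 2.67% of 2997 genes had at least 4 and 54.5% at least 1. For php-3, 14.3% of 9124 genes had at least 2 and 41.6% at least 1. For egl-5, 37.7% of 11462 genes had at least 1. The count for egl-5 was thus a common one, and the count for php-3 was reached by 14.3% of such genes. The counts for the other 4 were reached by at most 2.7% of such genes. Per kb of window, ceh-13 was densest with 0.542 summits, and egl-5 sparsest with 0.129. The windows also held 32 pooled regions outside the thresholded list, with signals of 13.9 to 65.3, and 58.3% of all genes had at least 1 pooled region.

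The place of the summits, like their number, is given beside the whole list and was not tested. A Hox window takes in only the gene and 5 kb upstream, whereas the whole list has no such limit. The window rule itself can therefore shift the shares below, so they do not show where Hox peaks tend to lie. The thresholded summits described above as outside the windows all lay outside the Hox genes. Of the 18 Hox summits, 10 lay inside a Hox gene, where 33.1% of all thresholded summits lay inside a protein-coding gene. Introns held 9 of the 18, against 26% of all thresholded summits, and 5 of the 18 lay in a promoter window, against 48.8% of all. Coding sequence held 0 of the 18 Hox summits and 1.9% of all, too small a share for 18 summits to show a difference. Among the 63 homeobox genes with a ceh name, which have a median window of 7652 bp, 42.9% had a summit, near the share of all genes, and ceh-13 was the only one with 4 or more. By number of summits, window length and summed signal, the genes most like lin-39 were nhr-21, unc-94 and ego-1. Each had 5 summits, and their summed signals were 899.8, 891.8 and 934.4, against 908.9 for lin-39. They were the closest of 19 candidates across the single pooled data set.

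**Figure D4:**
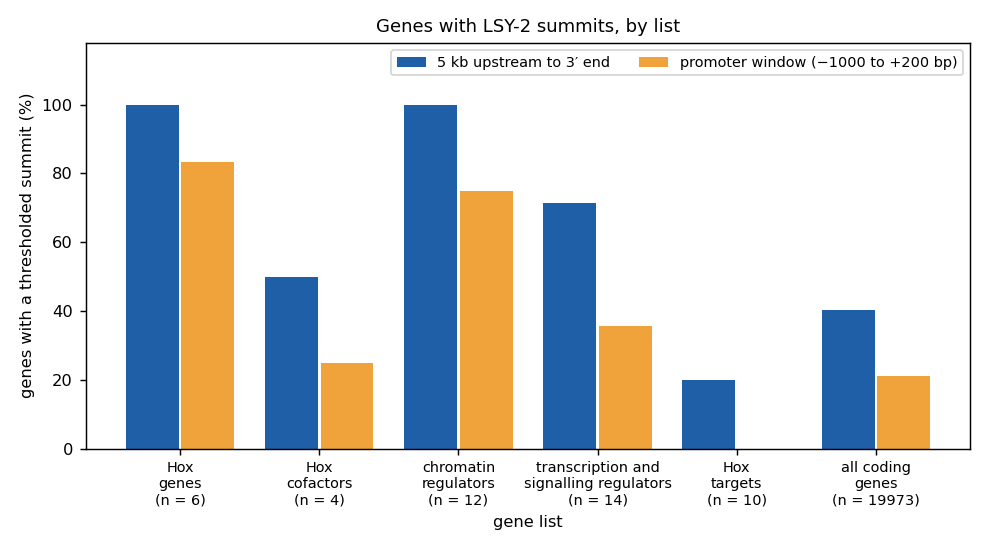
Share of genes (vertical axis, percent) with a thresholded summit between 5 kb upstream and the 3′ end (blue) or in the promoter window (orange), for the Hox genes, 4 lists of related genes and all protein-coding genes. All 12 chromatin regulators have a summit, and 2 of 10 Hox targets have one, against 40.2% of all protein-coding genes.

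Genes that work with the Hox genes were read in the same way. Of 4 genes for Hox cofactors, 2 had a summit in the window, against 40.2% of all genes, and 4 genes are too few to show a difference. unc-62, the Meis-type homeodomain cofactor, had 5, of which the highest reached 2405.9 inside its gene, nearest to the 5′ end of T28F12.1. ceh-20, the PBC-type cofactor, had 907.5 at 785 bp upstream, with 353.9 in replicate 1 and 547.3 in replicate 2. ceh-40, another PBC gene, and psa-3, a Meis-related gene, had none. Of these 4, only ceh-20 had a summit in the promoter window.

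All 12 chromatin regulators of Hox genes had a summit in the window, and 9 of 12 in the promoter window, against the 40.2% and 21.1% of all genes given above. Their windows, 7186 to 17901 bp, were all longer than the median of all genes, 7027 bp, and longer windows can hold more summits. The list was also chosen with earlier results of these data known. The highest signals were at the Polycomb-like gene sor-1, with 5139.3 at 421 bp upstream, and at the histone demethylase gene spr-5, with 5893.5 at 3514 bp upstream. The spr-5 summit lay nearest to another gene, eif-3.J, 945 bp upstream of it. sop-2, another Polycomb-like gene, had 1126.1 at 590 bp upstream. ash-2, which encodes a subunit of a histone H3 methyltransferase complex, had 935.0, nearest to Y17G7B.20. The signals at sor-1 and sop-2 were higher than that of the strongest Hox peak, 443.5. The 1.46-fold spread between replicates came from peaks in the Hox signal range, which does not reach the signals of these genes.

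Of 14 transcription and signalling regulators of Hox genes, 10 had a summit in the window and 5 in the promoter window. Of all genes, 40.2% and 21.1% had one. The windows of these regulators, 7862 to 29426 bp, were all longer than the median of all genes, 7027 bp. The mediator subunit gene sur-2 had 631.5 and let-60, which encodes Ras, had 504.5 at a summit nearer to the 5′ end of ZK792.12. lin-22, a Hairy-related repressor gene, had 266.1, and the zinc finger gene sem-4 had 212.7 among 4 summits. The Wnt pathway genes bar-1, a beta-catenin gene, and egl-20, a Wnt gene, had none. Of 10 described Hox targets, 2 had a summit and 0 had one in the promoter window, against 40.2% and 21.1% of all genes. egl-18, a GATA factor gene, had 311.3 inside its gene, and mec-3, a homeobox gene of touch neurons, had 90.4 at 4701 bp upstream, nearest to ugt-43. The Wnt gene cwn-1 and the cell fusion gene eff-1 had none. Over the 4 lists together, 26 of 40 genes had a summit, against 40.2% of all genes. These lists are short and their windows differ in length, so the shares describe them and were not tested.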

How the data were processed

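Per the README texts deposited with the samples, the authors derived a list of candidate regions for each replicate from its own alignments with a control, a pooled list from both replicates, and the IDR thresholded list from those 3. Each list gives an interval, a signal value, a −log10 q value and a summit offset as the authors deposited them. How reads were aligned, how regions were called and how the signal was scaled is not given in the sources used here. The lists in the ce11 build were used, and those in ce10 were not, without conversion between builds. Depth per sample is unknown, so no interval for counting error can be given.

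Summits were placed on the Ensembl release 115 annotation of WBcel235 with Python 3.11.15, and figures drawn with matplotlib 3.10.9. A partner is a summit within 100 bp in a replicate list. No p-value was computed, since there is 1 group of 2 replicates. Window counts and word searches were tested on simulated data, and the like-length comparisons were not. Named genes were the 6 Hox genes, the gene with the nearest 5′ end to a summit, up to 4 members of each list with the highest signal and up to 2 with none, first by name, and the 3 most like lin-39. The members and lists were chosen with earlier results of these data known. Alternatives were other window lengths, promoter windows, partner distances, a stricter signal cut-off and each replicate left out.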

Additional observations from a re-analysis of the deposited data

How the results depend on the processing

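The number of Hox peaks, like that of all peaks, depends on how strict the list is. With the stronger 3425 of the 6850 peaks alone, 8 of the 18 summits stayed, none of them at egl-5 or php-3. With a promoter window of 500 bp upstream and 100 bp downstream, 2 of the 5 genes stayed, lin-39 and egl-5. The other 33 of 35 alternatives for the main counts stayed within 1.5 times the value given or, for the replicate ratio, within its SD. The summits numbered 15 with 2 kb upstream, where php-3 had none, and 25 with 10 kb. With 2 kb, 5 of 6 Hox genes and 30.4% of all genes had a summit. With 10 kb, 6 of 6 Hox genes and 51.6% of all genes had one. Without replicate 1 or replicate 2 the Hox summits numbered 16 to 17, over peak lists of equal length taken from the other replicate. No paired analysis was possible because there is 1 group. The unknown depth, the unstated signal scaling and the absence of reads limit these values.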
